A study of Sus scrofa with 3 samples.

Results

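miR-26a and miR-26b are microRNAs (miRNAs), short RNAs cut from hairpin precursors that lower the output of the messenger RNAs they pair with. They were taken here as all lines of the deposited tables named miR-26a or miR-26b, whatever the species prefix and copy number, and they make up 2 of the 677 miRNA names in the series. Each hairpin can give a 5p and a 3p miRNA, so the pair has 4 mature arms, among 976 mature miRNAs with a read. The tables held 11 lines for them in the E90, 11 in the P30d and 5 in the P7y library. The pigs were males of the Jinhua breed, at 90 days of embryonic life (E90), 30 days after birth (P30d, the weaning stage) and 7 years after birth (P7y, adult), and the tissue was liver, with no treatment named. The protocol names 3 pigs for each stage while the series holds 1 small RNA library for each, with no word on pooling. Differences between stages are thus differences between single libraries with no replicate check, and every interval below is a 95% interval for counting error only. In whole liver, fewer cells of a type and less RNA per cell cannot be told apart.

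A miRNA finds its targets mainly through its seed, bases 2 to 8 from the 5′ end, and miRNAs with the same seed can share targets. In human, the genes of miR-26a and miR-26b lie in introns of the CTDSP genes, which encode small phosphatases that act on RNA polymerase II. The gene table of a later pig assembly (Sscrofa11.1) likewise placed the 84-base miR-26a hairpin gene inside CTDSP2. In mouse liver, miR-26a is known to restrain cell division by lowering cyclins, and to improve insulin sensitivity and lower glucose production.

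The mature 5p sequences are shown because the shared seed, in capitals, makes the pair a family, and because a few bases outside it tell the members apart.

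miR-26a-5p: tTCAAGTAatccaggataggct

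miR-26b-5p: tTCAAGTAattcaggataggtt

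5p stretch of the chromosome 13 hairpin: tTCAAGTAacccaggataggct

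Counted from 1 at the 5′ end with the base of miR-26a-5p given first, miR-26b-5p differed by C11T and C21T. The stretch of the chromosome 13 hairpin differed by T10C alone. All 3 share the seed. The 22-base miR-26a-5p and the 22-base miR-26b-5p printed above were each the representative read, the most copied read of the arm, in all 3 libraries.

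The tables gave 3 hairpins for the pair, on the build Sscrofa10.2 that the submitters' processing notes name. They are shown with the arms in capitals because the place of a read decides which hairpin it was counted for.

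miR-26a hairpin on an unplaced scaffold, plus strand, 40640 to 40723: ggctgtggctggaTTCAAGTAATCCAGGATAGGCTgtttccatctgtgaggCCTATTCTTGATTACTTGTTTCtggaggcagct

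miR-26a-1 hairpin, minus strand, chr13:24885242-24885331: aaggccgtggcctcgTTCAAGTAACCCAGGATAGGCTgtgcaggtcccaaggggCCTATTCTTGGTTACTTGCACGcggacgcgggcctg

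miR-26b hairpin on a sequence that the tables give by an identifier only, plus strand, 56006 to 56081: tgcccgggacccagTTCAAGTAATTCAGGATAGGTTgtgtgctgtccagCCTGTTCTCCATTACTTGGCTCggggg

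The scaffold hairpin held 183412 of the 183417 miR-26a-5p reads in the E90 library, 370397 of 370408 in the P30d library and 251582 of 251586 in the P7y library. Of miR-26a-5p reads, the chromosome 13 hairpin held 0 in the E90, 1 in the P30d and 4 in the P7y library. Results for miR-26a-5p are thus results for the scaffold hairpin as the tables divide the reads.

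Reads of named miRNAs numbered 9243601 in the E90 library, 3622993 in the P30d library and 9920207 in the P7y library. Levels are counts per 1000000 of these reads (CPM), so P30d, the shallowest library, has the widest intervals for a given level. A level is a share of all miRNA reads and not an amount per cell. Of all miRNA reads, the arms of miR-26 together made up 2.32% in the E90 library, 11.2% in the P30d library and 2.72% in the P7y library.

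miR-26a-5p, the main product of its hairpin, stood at 19843 CPM at E90, 102238 CPM at P30d and 25361 CPM at P7y. It was high at P30d and low in the other libraries (intervals 19752 to 19934, 101909 to 102568 and 25262 to 25460.3 CPM in the order of age). With this many reads a counting interval is narrow, so even small differences leave intervals apart. Among all miRNAs it ranked 11th at E90, 3rd at P30d and 10th at P7y. miR-26b-5p stood at 3280.0 CPM at E90, 9202 CPM at P30d and 1833 CPM at P7y. It too was highest at P30d, but its lowest library was P7y and not E90. Its ranks were 37th, 20th and 39th in the order of age.

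miR-26b-3p, the minor arm of the miR-26b hairpin, stood at 89.5 CPM at E90 (interval 83.5 to 95.8), 37.3 CPM at P30d (31.2 to 44.1) and 41.6 CPM at P7y (37.7 to 45.8). It was high at E90, the opposite of miR-26b-5p at P30d, and its P30d and P7y intervals overlap. miR-26a-3p was close to the limit of detection, with 9 reads in the E90, 42 in the P30d and 6 in the P7y library, which is 0.974, 11.6 and 0.605 CPM. Of the 9 reads at E90, 5 were counted for the scaffold hairpin and 4 for the chromosome 13 hairpin, while all reads of the other libraries were counted for the scaffold hairpin. The limit that a count of 0 allows is 0.325 CPM for E90, 0.828 CPM for P30d and 0.302 CPM for P7y.

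**Figure D1:**
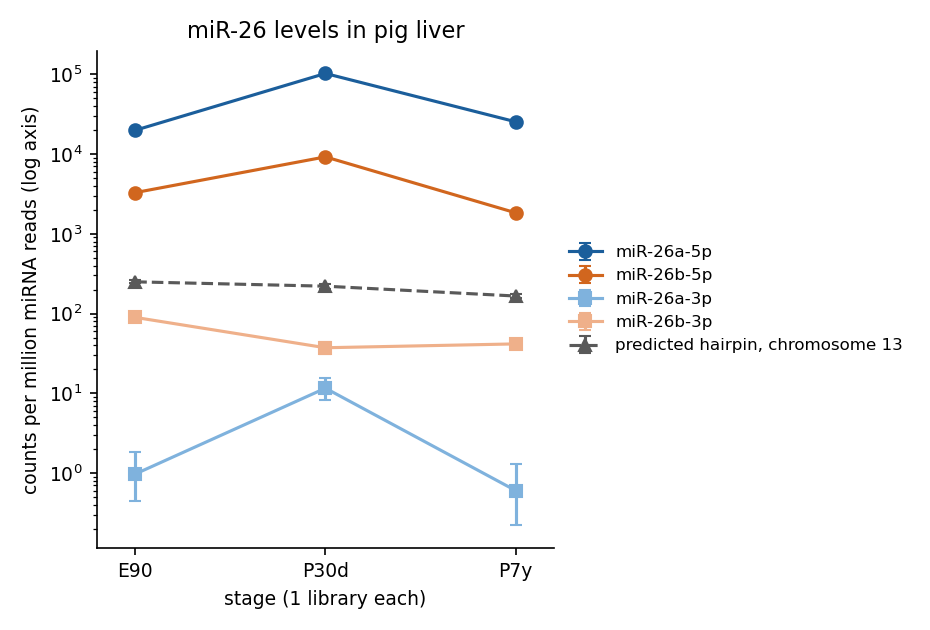
Levels of the 4 arms of miR-26a and miR-26b, and of a predicted hairpin on chromosome 13 that carries the same seed, in CPM (log axis) at E90, P30d and P7y. Points are single libraries and bars are 95% counting intervals, and both 5p arms stand highest at P30d, at 102238 and 9202 CPM, while miR-26b-3p stands highest at E90, at 89.5 CPM.

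The comparison of P30d with E90 spans birth and suckling. Both main arms were higher at P30d: miR-26a-5p was 5.15-fold higher (102238 against 19843 CPM) and miR-26b-5p was 2.81-fold higher (9202 against 3280.0 CPM). The minor arm miR-26b-3p was lower, at 37.3 CPM at P30d against 89.5 CPM at E90. On the log2 scale the differences were 2.37 for miR-26a-5p (interval 2.36 to 2.37), 1.49 for miR-26b-5p (1.47 to 1.51) and -1.26 for miR-26b-3p (-1.54 to -0.9996).

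A miRNA was counted as higher or lower where the ratio was 2-fold or more and its interval left out equality. This was asked of the 324 miRNAs whose mean reached 10 CPM, which include 3 of the 4 arms and leave out miR-26a-3p with its mean of 4.39 CPM. At P30d against E90, 2 of the 3 arms were higher and 1 was lower, where 33.3% of the 324 miRNAs were higher and 35.5% lower. Passing this rule was common, at 68.8% in either direction, so a pass sets the arms apart little. In size, 50 of the 324 miRNAs had a larger ratio than miR-26a-5p, and 85 a larger one than miR-26b-5p. The median log2 ratio of all 324 was -0.11, so relative to it miR-26a-5p was at 2.48 and miR-26b-5p at 1.60. miR-26a-3p, outside the filter, had 42 reads at P30d against 9 at E90, a log2 ratio of 3.57 with an interval of 2.51 to 4.80. With known pig miRNAs only, which leaves the 5 scaffold reads at E90, it was 4.44.

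The comparison of P7y with P30d spans growth and adult life. miR-26a-5p was lower at P7y, at 25361 CPM against 102238 CPM at P30d, a log2 ratio of -2.01 (-2.02 to -2.00). miR-26b-5p was also lower, at 1833 CPM at P7y against 9202 CPM at P30d, a log2 ratio of -2.33 (-2.35 to -2.30). miR-26b-3p was at 41.6 CPM at P7y against 37.3 CPM at P30d (log2 ratio 0.16, -0.12 to 0.45). Counting only reads without a mismatch, it was lower at P7y (log2 ratio -0.48, -0.84 to -0.12), and 55.5% of its P7y reads carry a mismatch. Lower values were general in this pair: 69.4% of the 324 miRNAs passed in either direction, and 55.9% were lower and 13.6% higher, and the median log2 ratio was -1.36. Relative to that median miR-26a-5p was at -0.66 and miR-26b-5p at -0.97, while miR-26b-3p was at 1.52.

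The size of this fall depends on the scaling. TMM factors and median-of-ratios size factors, which set a typical miRNA near equality instead of the total, moved every log2 ratio of P7y over P30d up by 0.99 and 1.16. miR-26a-5p then came to -1.02 with TMM and to -0.85 with size factors, which no longer reaches 2-fold, and miR-26b-5p to -1.34 and -1.16. miR-26b-3p came to 1.15 and 1.32, which counts as higher. Of all 324 miRNAs, 87 were then higher and 117 lower with TMM, against 44 and 181 with CPM. The way reads are counted matters too: with the representative read alone the log2 ratio of miR-26b-5p was -3.00, against -2.33 in the main count.

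The comparison of P7y with E90 sets the old against the unborn liver. miR-26a-5p was at 25361 CPM at P7y against 19843 CPM at E90 (log2 ratio 0.35), and miR-26b-5p at 1833 CPM at P7y against 3280.0 CPM at E90 (log2 ratio -0.84). Neither reached 2-fold. miR-26b-3p was lower, at 41.6 CPM at P7y against 89.5 CPM at E90 (log2 ratio -1.10, -1.28 to -0.93), the one arm of the 3 that passed, where 62.7% of the 324 miRNAs passed, 50.6% lower and 12.0% higher. The median of all was -1.06, almost the value of miR-26b-3p. With TMM and size factors the log2 ratio of miR-26a-5p was 1.37 and 1.45, which counts as higher. That of miR-26b-5p turned to 0.18 and 0.26, and that of miR-26b-3p came to -0.087 and -0.0028, so it was no longer counted as lower. With TMM, 90 of the 324 miRNAs were higher and 108 lower, against 39 and 164 with CPM.

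**Figure D2:**
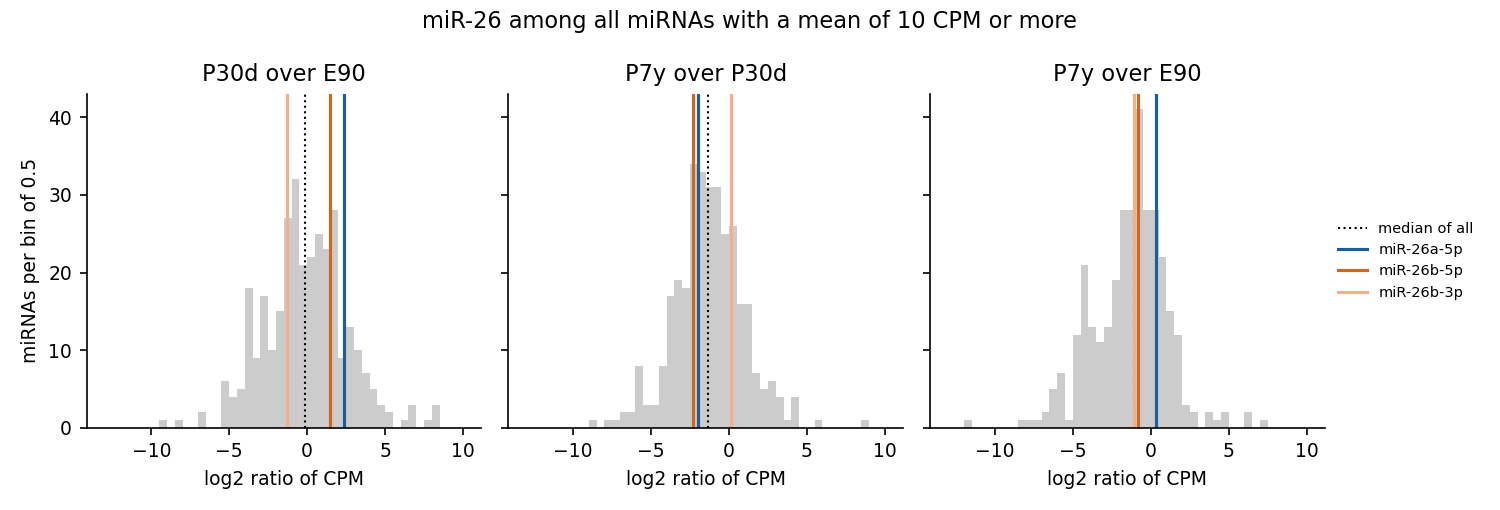
Histograms of log2 CPM ratios (later over earlier library) of the 324 miRNAs whose mean reached 10 CPM, with vertical lines for 3 arms of miR-26 and for the median of all. At P30d over E90 the 5p arms lie right of the median at 2.37 and 1.49 and miR-26b-3p left of it at -1.26, while at P7y over P30d the 5p arms lie left of a median that is itself at -1.36 (in the third panel the median, -1.06, is hidden by the line of miR-26b-3p).

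**Figure D3:**
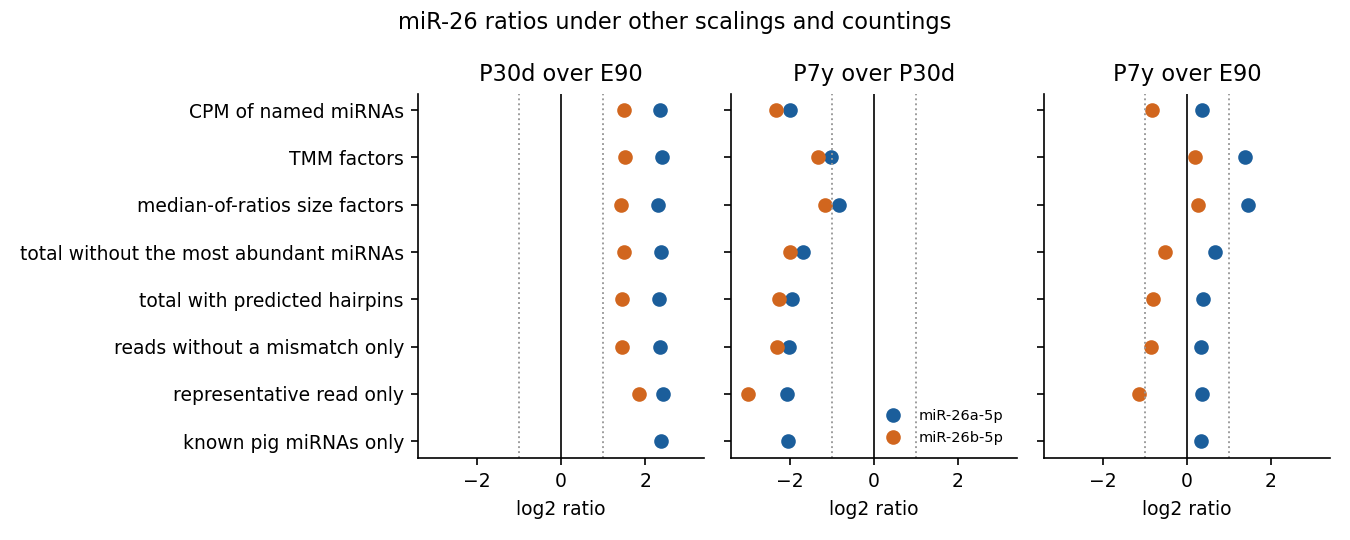
Log2 ratios of miR-26a-5p and miR-26b-5p (later over earlier library) under the main count, 3 other scalings, a total with predicted hairpins and 3 other ways to count reads, with dotted lines at 2-fold; miR-26b-5p has no value for known pig miRNAs only. The P30d over E90 ratios stay between 2.30 and 2.42 for miR-26a-5p and between 1.42 and 1.87 for miR-26b-5p. The ratios with P7y move with the scaling and, for miR-26b-5p, also with the representative read alone.

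The balance of the members within a library does not depend on scaling. There were 6.05 reads of miR-26a-5p for each read of miR-26b-5p at E90 (5.98 to 6.12), 11.1 at P30d (11.0 to 11.2) and 13.8 in the P7y library (13.6 to 14.0). The share of miR-26a in the pair was thus larger at each later stage. The log2 balance was higher by 0.88 at P30d than at E90 (0.85 to 0.90), by 0.32 at P7y than at P30d (0.29 to 0.34) and by 1.19 at P7y than at E90 (1.17 to 1.22). The same order held for reads without a mismatch and for the representative read alone, so miR-26a-5p and miR-26b-5p did not keep 1 ratio across these libraries.

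The arms of the miR-26b hairpin also shifted. There were 36.7 reads of miR-26b-5p for each read of miR-26b-3p at E90 (34.2 to 39.3), 247 at P30d (209 to 295) and 44.0 in the P7y library (39.9 to 48.7). P30d stands apart from the others. The log2 balance was higher by 2.75 at P30d than at E90 (2.49 to 3.03), changed by -2.48 at P7y against P30d (-2.78 to -2.20), and was higher by 0.26 at P7y than at E90 (0.09 to 0.44). Counting only reads without a mismatch, that last difference was 1.01 (0.77 to 1.25). Arms parted in other hairpins too. At P30d over E90 the log2 ratios were 2.43 for miR-125b-5p and -1.19 for miR-125b-3p. They were 1.61 for miR-126-5p and -0.67 for miR-126-3p, but -0.87 for miR-221-5p and -1.26 for miR-221-3p. How many hairpins shifted as much as miR-26b was not counted. For miR-26a the 3p arm had too few reads for a close estimate: 20380 reads of miR-26a-5p for each of miR-26a-3p at E90 (10735 to 44569), 8819 at P30d (6524 to 12237) and 41931 in the P7y library (19264 to 114260.0). The log2 balance changed by -1.15 at P30d against E90 (-2.43 to -0.15) and was higher by 2.15 at P7y than at P30d (1.01 to 3.77). The E90 value mixes both miR-26a hairpins, since 4 of its 9 reads of miR-26a-3p were counted for chromosome 13. With known pig miRNAs only, the log2 balance at E90 was 15.03 in place of 14.24 and the change at P30d against E90 was -1.94 (-3.22 to -0.65). For reads without a mismatch and for the representative read alone the interval of that change includes 0. Intervals of balance differences under such alternatives are symmetric approximations, unlike the exact ones of the main count.

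**Figure D4:**
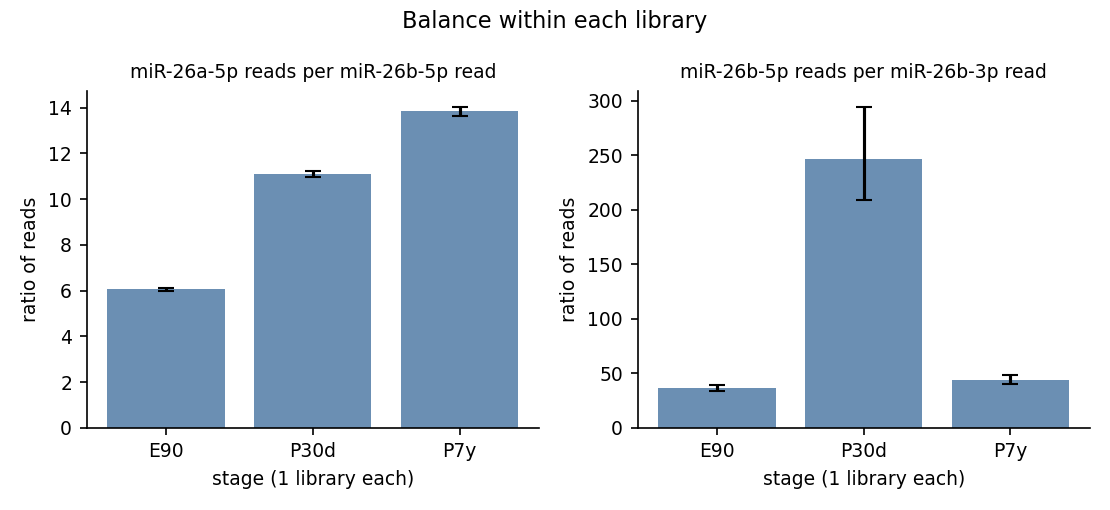
Reads of miR-26a-5p per read of miR-26b-5p (left) and of miR-26b-5p per read of miR-26b-3p (right) within each library, with bars from 0 and 95% counting intervals. In the order of age the first ratio is 6.05, 11.1 and 13.8, and the second is 36.7, 247 and 44.0.

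The 3p arms varied at their ends between libraries, and their representative reads are shown for that reason, with bases 2 to 8 in capitals.

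miR-26b-3p at E90: cCTGTTCTccattacttggctc

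miR-26b-3p at P30d: cCTGTTCTccattacttggct

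miR-26b-3p at P7y: cCTGTTCTccattacttggctct

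miR-26a-3p at E90 and P30d: cCTATTCTtgattacttgtttc

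miR-26a-3p at P7y: aGGCCTATtcttgattacttg

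For miR-26b-3p the 5′ end and so the seed were the same in all 3 libraries, and the length was 22, 21 and 23 bases in the order of age. The last base of the P7y read, a T, is a G in the hairpin printed above, so that read carries a mismatch. The representative read held 68.1%, 38.5% and 49.9% of the arm's reads in the same order. Reads with a mismatch to the hairpin made up 20.9%, 23.7% and 55.5% of miR-26b-3p, high at P7y. For miR-26a-3p the P7y read began 3 bases further upstream and so has another seed, but it rests on 5 copies. The 5p arms kept the same representative read throughout. It held 79.0%, 83.8% and 76.2% of miR-26a-5p and 59.0%, 78.2% and 46.4% of miR-26b-5p in the order of age, while reads with a mismatch made up 12.7%, 8.62% and 17.7% of miR-26a-5p and 9.31%, 7.17% and 14.0% of miR-26b-5p. All named miRNAs together moved the same way, with mismatched reads at 18.6%, 13.9% and 21.7% in the order of age, and the part of this in the results was not tested.

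A further hairpin, listed as predicted and so outside the members and outside the total, lies at the chromosome 13 place given above. Its representative read, the same in all 3 libraries, is shown because its seed is that of miR-26.

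predicted hairpin of chromosome 13: tTCAAGTAacccaggataggctt

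Its reads numbered 2309 in the E90, 798 in the P30d and 1645 in the P7y library, which is 249.8 CPM, 220.3 CPM and 165.8 CPM. Unlike the 5p arms of the members it was not highest at P30d: its log2 ratio was -0.18 at P30d over E90 (-0.30 to -0.06), beside 2.37 for miR-26a-5p. Of the reads of itself and miR-26a-5p together it made up 1.24% in the E90 library (1.19 to 1.30, Clopper-Pearson), 0.215% in the P30d library (0.2003 to 0.2304) and 0.650% in the P7y library (0.619 to 0.682). All its reads carry a mismatch to the genome. The first 22 bases of the read are those of the genome there and differ from miR-26a-5p at 1 base, T10C, so the 2 sets of reads are told apart by a single base. The tables do not tell where reads of exactly those 22 bases were counted. Lines named miR-26 after opossum or platypus, not counted as members, held 87, 49 and 115 reads, none without a mismatch. The representative read held the whole miR-26a-5p sequence in 4 of 5 such lines at E90, 4 of 4 at P30d and 2 of 2 at P7y. Summed as miR-26-5p, these lines are among the 324 miRNAs that passed the filter.

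Over the 177 miRNAs whose mean reached 100 CPM and that had a read in every library, the highest library was E90 for 73 (41.2%), P30d for 77 (43.5%) and P7y for 27 (15.3%). The order of miR-26a-5p, P30d above P7y above E90, was shared by 24 (13.6%), and that of miR-26b-5p, P30d above E90 above P7y, by 53 (29.9%). These shares are for CPM and were not counted with TMM or size factors, under which miR-26b-5p takes the order of miR-26a-5p.

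The profiles most like miR-26a-5p were sought by the distance between log2 CPM over the 3 libraries, each centred on its own mean, which no scaling of the libraries changes. The nearest were miR-23b-3p, which shares a cluster with miR-27b and miR-24, at a distance of 0.31 and miR-22-3p, a miRNA abundant in heart and muscle, at 0.31, where the median of all 177 was 2.27. miR-23b-3p stood at 675, 2584 and 777 CPM and miR-22-3p at 2266, 15239 and 2924 CPM in the order of age. Next came miR-30a-3p at 0.40, the let-7 family member miR-98-5p at 0.42, the leukocyte miRNA miR-142-5p at 0.44, the mesenchymal miRNA miR-214-3p at 0.44, miR-2904-3p at 0.48 and miR-30e-3p at 0.51. miR-26b-5p came only 21st, at 0.87. The nearest to miR-26b-5p were miR-1285-3p at 0.24, the let-7 member let-7e-5p at 0.25, miR-200a-3p, a miRNA of epithelia, at 0.30 and miR-5105-3p at 0.32, where the median was 1.89. miR-26a-5p was 33rd in that order. With 3 libraries a profile has few ways to differ, so likeness is a description of these libraries.

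**Figure D5:**
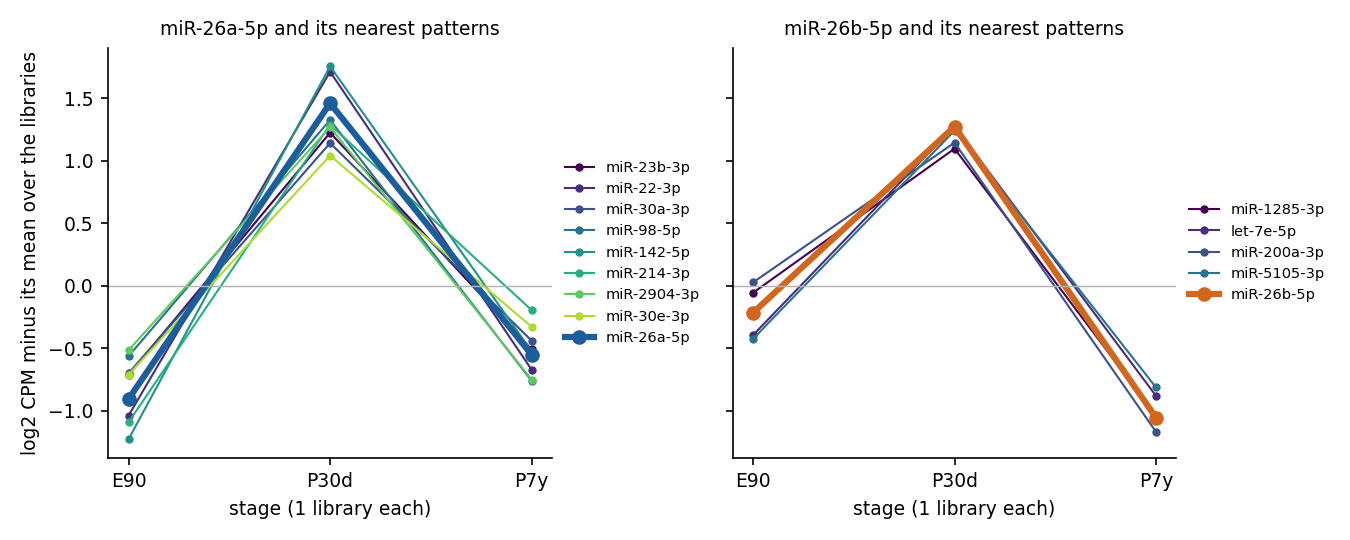
Log2 CPM minus its mean over the 3 libraries for miR-26a-5p with its 8 nearest profiles (left) and miR-26b-5p with its 4 nearest (right). All of them peak at P30d, and the lines differ in whether E90 or P7y is lowest.

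Other miRNAs with known roles in glucose and lipid metabolism of liver did not share 1 direction. Of a list of 15, 14 passed the filter. At P30d against E90, 6 were higher and 2 lower, where 33.3% and 35.5% of all 324 miRNAs were, with a median log2 ratio of 0.70 beside -0.11. Among them miR-33a-5p, which lies in the gene of a sterol regulator and lowers cholesterol export, was at 55.5 CPM at P30d against 9.09 CPM at E90. miR-103-3p, which lowers insulin sensitivity in mouse, was at 952 CPM at P30d against 7375 CPM at E90. At P7y against P30d, 2 were higher and 8 lower, where 13.6% and 55.9% of all were, with a median of -1.38 beside -1.36. With TMM, 4 were higher and 5 lower, where 87 and 117 of all 324 were, with a median of -0.39 beside -0.37. At P7y against E90, 3 were higher and 6 lower, where 12.0% and 50.6% of all were, with a median of -0.12 beside -1.06. With TMM, 7 were higher and 2 lower, where 90 and 108 of all 324 were, with a median of 0.90 beside -0.046.

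Of 20 miRNAs known for acting on growth and the cell cycle, all passed the filter. At P30d against E90, 4 were higher and 8 lower, where 33.3% and 35.5% of all 324 miRNAs were, with a median of -0.30 beside -0.11. Those higher include let-7b-5p, a let-7 member that restrains growth, at 2260.0 CPM at P30d against 319 CPM at E90. They also include miR-497-5p, which lowers cyclins, at 84.5 CPM at P30d against 24.1 CPM at E90. Those lower include miR-106b-5p, which lowers cell cycle inhibitors, at 263 CPM at P30d against 666 CPM at E90. But they also include miR-424-5p and miR-503-5p, which like miR-497-5p are known to lower cyclins, at 135 and 72.6 CPM at P30d against 784 and 2780.3 CPM at E90. Growth-restraining miRNAs were thus among both the higher and the lower members. At P7y against P30d, 3 were higher and 10 lower, where 13.6% and 55.9% of all were, with a median of -1.09 beside -1.36. With TMM, 5 were higher and 6 lower, where 87 and 117 of all 324 were, with a median of -0.10 beside -0.37. At P7y against E90, 5 were higher and 12 lower, where 12.0% and 50.6% of all were, with a median of -1.56 beside -1.06. With TMM, 6 were higher and 9 lower, where 90 and 108 of all 324 were, with a median of -0.55 beside -0.046. With CPM, the shares that were lower lie near those of all miRNAs.

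Markers of the cells a liver sample can hold were read in every library. The 5 hepatocyte miRNAs made up 31.3%, 36.5% and 28.8% of miRNA reads in the order of age, the largest share of the lists. Members of this list differed in direction. miR-122-5p was at 128017, 213802 and 37869.7 CPM and miR-885-5p at 9.41, 209 and 13.8 CPM, both highest at P30d. miR-148a-3p was at 75920.0, 41821.5 and 95666 CPM, lowest at P30d, and miR-192-5p at 109466, 109310.2 and 154836 CPM, highest at P7y. The list holds miR-194-5p, at 23.7, 46.4 and 19.4 CPM, and not the more abundant miR-194a-5p, at 27936, 14577 and 15262 CPM. The 5 leukocyte miRNAs together made up 0.0962%, 0.345% and 0.0944%, but they did not move as one. Most of the P30d sum was miR-142-5p, at 374, 2956 and 609 CPM in the order of age, while the other arm of that hairpin, miR-142-3p, was at 195, 190 and 105 CPM. miR-223-3p, a miRNA of myeloid cells, was at 296, 50.2 and 83.1 CPM, lowest where miR-26a-5p was highest. miR-150-5p and miR-155-5p, miRNAs of lymphocytes, were at 5.95, 118 and 103 CPM and at 90.3, 132 and 44.8 CPM. The 5 mesenchymal miRNAs together made up 5.88%, 6.56% and 11.3%, a sum of members that went opposite ways. miR-199a-5p was at 3349, 40212 and 2539 CPM, highest at P30d like miR-26a-5p, as were miR-199a-3p at 3012, 6113 and 3056 CPM and miR-214-3p at 95.9, 498 and 178 CPM. miR-143-3p was at 51123, 17730.4 and 102623 CPM and miR-145-5p at 1189, 1043 and 4688 CPM, both lowest at P30d. The 4 erythroid miRNAs, which mark the blood-forming fetal liver, made up 0.723%, 0.303% and 0.182%. Of these, miR-144-5p, miR-451-5p and miR-486-5p were highest at E90, but miR-144-3p was at 978, 1195 and 123 CPM, highest at P30d. The 2 endothelial miRNAs made up 1.33%, 1.19% and 1.36%, and the 4 biliary and epithelial ones 0.199%, 0.0414% and 0.0924%. Among the endothelial ones, miR-126-5p was at 1465, 4458 and 2616 CPM and miR-126-3p at 11832, 7426 and 10951 CPM. Among the epithelial ones, miR-200a-3p was at 86.1, 187 and 37.6 CPM, highest at P30d. In contrast, miR-200b-3p was at 613, 115 and 178 CPM and miR-375-3p at 1289, 104 and 706 CPM, both lowest at P30d. The part of these shares in the miR-26 results was not tested.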

How the data were processed

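Liver small RNA of male Jinhua pigs was measured in 1 library at each of 3 stages. Per the labels' protocols, short RNA was cut from a gel, joined to adaptors, amplified and sequenced. The authors, per the file headers, aligned reads with miRBase hairpins of pig and other mammals and placed hairpins on the genome. The unit of the deposited reads per arm is the expected count, because reads that map to several hairpins are divided, and so are the deposited reads with 0 mismatches and those with more. The deposited copies of the representative read are counts. Sscrofa10.2 is the build per the submitters' processing notes. The aligner, trimming, miRBase release and mismatch limit were not given in the sources used here. The total leaves out predicted hairpins.

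Expected counts were summed per member and arm and rounded. Of 1007 names, 17 were merged into others that shared a representative read of at least 18 nt. The lines with that read had to hold more than 50% of the reads of both names, a rule set with the tables in view. Ratios have exact conditional binomial intervals, levels exact Poisson ones. Differences of balance have exact conditional intervals in the main count and symmetric approximate ones under the alternatives. A count of 0 entered as 3 reads, and 0.5 was added to each count for the balance of arms. The intervals cover counting error only. They treat reads as independent, but reads are PCR copies and not independent molecules, so the intervals can be too narrow. No p-values are given, since 1 library a stage leaves no residual spread. The miRNAs named beside the members are the 8 nearest profiles to miR-26a-5p, the 4 nearest to miR-26b-5p and examples from the lists. The examples were chosen after their values were seen. The members, lists and alternatives were chosen with earlier results of these data known. Alternatives were TMM factors (edgeR 4.0.16), size factors (DESeq2 1.42.0), totals leaving out each library's 5 leading miRNAs, a total with predicted hairpins, reads without a mismatch, the representative read alone, known pig miRNAs only, no filter and a filter at 100 CPM. The comparison was tested on simulated Poisson counts with planted folds. The intervals assume the same model, so this checks the calculation and not differences between real libraries. Calculations ran in R 4.3.3 and in Python 3.11.15 with SciPy 1.17.1, NumPy 2.4.6, pandas 2.3.3 and matplotlib 3.10.9.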

Additional observations from a re-analysis of the deposited data

Results flagged for a closer look

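A predicted hairpin outside the named miRNAs carried the miR-26 seed at the chromosome 13 place of miR-26a-1. Its reads numbered 2309 in the E90, 798 in the P30d and 1645 in the P7y library, above the 3 reads that a count of 0 allows. These reads lie outside the main measurement, and their origin was not tested.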

How the results depend on the processing

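The higher values of miR-26a-5p and miR-26b-5p at P30d than at E90 stayed past 2-fold under every alternative that gave them a value. Of the log2 ratios of all 4 arms under alternatives, 63 kept direction and side of the 2-fold rule, and 6 reversed, 5 passed and 4 no longer passed. TMM and size factors gave 1.37 and 1.45 for miR-26a-5p, 0.18 and 0.26 for miR-26b-5p, 0.33 and 0.41 for miR-26a-3p and -0.087 and -0.0028 for miR-26b-3p at P7y over E90. At P7y over P30d they gave 1.15 and 1.32 for miR-26b-3p, and size factors gave -0.85 for miR-26a-5p. For P7y over E90, the representative read gave -1.14 for miR-26b-5p, known pig miRNAs 0.14 for miR-26a-3p and the total without the most abundant miRNAs -0.78 for miR-26b-3p, and reads without a mismatch gave -0.48 for miR-26b-3p at P7y over P30d. By construction the scalings shift all miRNAs of a pair alike. For miR-26b-3p at P7y, the count without a mismatch leaves out the representative read, with 206 copies among 413 reads, since its last base differs from the hairpin. The part of this in the change was not tested, nor was the cause of the other moves. Of the levels, 52 moved beyond their counting interval and 26 did not.

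Counts of miRNAs past 2-fold, higher and lower, were 195 and 201 at P30d over E90 with no filter and 59 and 58 at 100 CPM, with 59 lower among known pig miRNAs. At P7y over P30d they were 87 and 117 with TMM, 98 and 101 with size factors, 68 and 341 with no filter, 93 lower at 100 CPM and 25 higher among known pig miRNAs. At P7y over E90 they were 90 and 108, 94 and 104, 90 and 342, 21 and 82 at 100 CPM, and 23 higher among known pig miRNAs. The log2 balance of miR-26a-5p over miR-26b-5p was 2.54, 3.45 and 3.73 at E90, P30d and P7y for reads without a mismatch and 3.02, 3.57 and 4.51 for the representative read. For the arms of miR-26b it was 5.39, 8.22 and 6.40 without a mismatch, and 4.99 at E90 and 8.96 at P30d for the representative read. The difference for the arms of miR-26a at P30d over E90 came to -0.98 (-2.00 to 0.046) and -0.43 (-1.50 to 0.63) under these counts and to -1.94 (-3.22 to -0.65) among known pig miRNAs, which leave out the 4 reads of miR-26a-3p from chromosome 13 at E90, and that for the arms of miR-26b at P7y over E90 to 1.01 without a mismatch.

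miR-26b had no value among known pig miRNAs, since the tables list its hairpin under other mammals. No replicate could be left out. No paired analysis was possible because each stage has 1 library. Depth limits miR-26a-3p, with 6 to 42 reads.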
